A study of Mus musculus with 18 samples.

Results

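Ribosome footprints of primary mouse astrocytes with a mutant translation factor were compared between cells given 48 hr of TNFα and IL-1β and untreated cells. The comparison rests on 6 of the 18 libraries of the series, 3 untreated and 3 treated, each group holding batches A, B and C. All 18 libraries come from cells homozygous for the R132H change of Eif2b5, so the untreated cells carry it too, and no wild-type (WT) library is analysed here. Treated cells received TNFα at 20 ng/ml together with IL-1β at 0.25 ng/ml during the last 48 hr of a 120 hr culture, and untreated cells were grown for the same 120 hr. The members are all genes for which the authors' deposited table gives the mutant 48 hr fold of RPF (ribosome-protected fragments, the footprints), 12204 of the 12205 genes listed. Each value is a log2 fold of treated over untreated cells, pooled by the authors over the batches, so a value of 1 is a 2-fold rise and -1 is a fall of the same size. The table holds no values per library, no levels and no depth. No gene could be tested, the folds carry no error, and counts of genes past a limit are a description. A gene is called high where its fold is 1 or more and low where it is -1 or less.

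Astrocytes are the glia that support neurons, and they turn reactive when TNFα and IL-1β reach their receptors. Those receptors signal through kinases to NF-kB, a transcription factor held in the cytosol by inhibitor proteins that it in turn induces, and the secondary release of interferon can switch on genes through STAT and IRF factors. Eif2b5 encodes the catalytic subunit of eIF2B, which recharges the initiation factor eIF2 so that ribosomes can start, and recessive mutations in eIF2B cause vanishing white matter disease, in which astrocytes are affected. Ribo-seq sequences the fragments of 26 to 34 nt that ribosomes shield from nuclease, so a footprint fold combines the change in mRNA with the change in ribosomes per mRNA.

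Footprint folds after 48 hr were small for most genes, with a longer tail on the high side than on the low side. Of 12204 genes, 907 (7.43%) were high and 1012 (8.29%) low, 15.7% in all. The middle was narrow, with a median of 0.01, quartiles of -0.30 and 0.28, and 67.4% of genes within 0.5 of 0. There were 160 genes at 4 or more against 31 at -4 or less, and 20 at 8 or more against none at -8 or less.

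Predicted gene models and Riken clones, by their symbols, were left out of the ranking of single genes. The 15 highest folds of the genes ranked included those of enzymes and of 3 chemokines. The authors' deposited table had Vnn3, a pantetheinase of the vanin family, highest at 11.35. It was followed in the authors' deposited table by Serpina3f, a serine protease inhibitor, at 10.40, the adhesion molecule gene Madcam1 at 10.32 and the acute phase gene Saa3 at 10.09. Acod1, the itaconate-producing enzyme, at 9.95 and Nos2, the inducible nitric oxide synthase, at 9.80 came next in the authors' deposited table. Chemokine genes in the authors' deposited table were Ccl5 at 9.67, Cxcl5 at 9.41 and Cxcl2 at 8.81. These attract T cells and, for the CXC pair, neutrophils. The remaining members of the group in the authors' deposited table were the ubiquitin-like Ubd at 8.72, the gelatinase gene Mmp9 at 8.61, the inflammasome sensor gene Nlrp3 at 8.59, Far2, a fatty alcohol-producing reductase, at 8.49, Zmynd15 at 8.47 and the NADPH oxidase subunit gene Cybb at 8.20.

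The 15 lowest folds of the genes ranked, again without predicted models and Riken clones, were led by a channel gene and a cartilage matrix gene. Mip, the lens water channel of the aquaporin family, was lowest in the authors' deposited table at -7.31, and Matn3, a cartilage matrilin, followed at -6.84. The authors' deposited table then listed the collagen gene Col8a2 at -6.38, the synuclein gene Sncb at -6.01 and the semaphorin gene Sema5b at -5.78. Other secreted or matrix products in the authors' deposited table were the protease gene Adamts18 at -5.67, Lect1 (chondromodulin) at -5.60, Fgfbp1, which binds fibroblast growth factors, at -5.59, Tll2 at -5.33, the leucine-rich proteoglycan gene Omd at -4.99, the ligand gene Wnt2b at -4.90 and Scube2 at -4.89. The membrane and metabolic genes of the group in the authors' deposited table were the melanosome gene Oca2 at -5.55, the natriuretic peptide clearance receptor gene Npr3 at -5.06 and Etnppl, an astrocyte enzyme of phosphoethanolamine breakdown, at -5.02.

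Among the receptors and adaptors of the applied cytokines, 8 of 22 measured genes were high and none was low, with a median of 0.47. The brake of the pathway, Irak3, was highest in the authors' deposited table at 4.36, followed by the kinase genes Ripk2 at 2.93 and Map3k8 at 2.13. The receptor genes in the authors' deposited table were Tnfrsf1b at 2.06, Il1r1 at 1.52 and Il1rap at 1.51, with the main TNF receptor gene Tnfrsf1a at 0.42. Myd88, the adaptor of IL-1 receptors, stood at 1.55 in the authors' deposited table. Traf1 was the lowest member in the authors' deposited table, at -0.85, with an mRNA fold of -1.96.

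NF-kB subunits and, more so, NF-kB inhibitors had high footprint folds. Of 11 subunit and kinase genes, 6 were high (median 1.15). In the authors' deposited table the kinase gene Ikbke was at 3.09, Relb at 2.95, Nfkb2 at 2.28 and Nfkb1 at 2.23. By contrast the authors' deposited table gave Rela 0.44, Chuk 0.10 and Ikbkg 0.08, which encode the p65 subunit and the core kinase complex. Of 13 inhibitors, 9 were high (median 2.54), and the authors' deposited table had Tnip3 at 6.39, Nfkbiz at 4.85 and the ubiquitin-editing enzyme gene Tnfaip3 at 4.73. Nfkbia, the IkB alpha gene, was at 2.75 in the authors' deposited table.

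Immediate early transcription factors were divided. Of 21 such genes, 5 were high and 3 low, with a median of 0.16. The authors' deposited table gave Ier3 3.76, Fosl1 2.49 and Junb 2.39 at the top, and the orphan receptor genes Nr4a3 -3.73 and Nr4a2 -1.53 and the Krüppel-like gene Klf2 -1.29 at the bottom. Jun at 0.12 and Fos at -0.16 in the authors' deposited table were near the all-gene median. In the C/EBP, STAT, IRF and SOCS list, 6 of 20 were high (median 0.33), with Irf1 at 3.02, Irf5 at 3.0 and Cebpb at 1.74 in the authors' deposited table.

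Innate immune sensors were high in 14 of 17 cases (median 1.55), with none low. After Nlrp3, the authors' deposited table had the bacterial lipoprotein receptor gene Tlr2 at 6.35, the nucleic acid sensor gene Zbp1 at 4.91 and the peptidoglycan sensor gene Nod2 at 4.26. Tlr4, Tlr3 and Tlr5 lay between 1.22 and 1.55 in the authors' deposited table. The adaptor gene Mavs was at -0.24 there, in the authors' deposited table the lowest of the list.

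**Figure D1:**
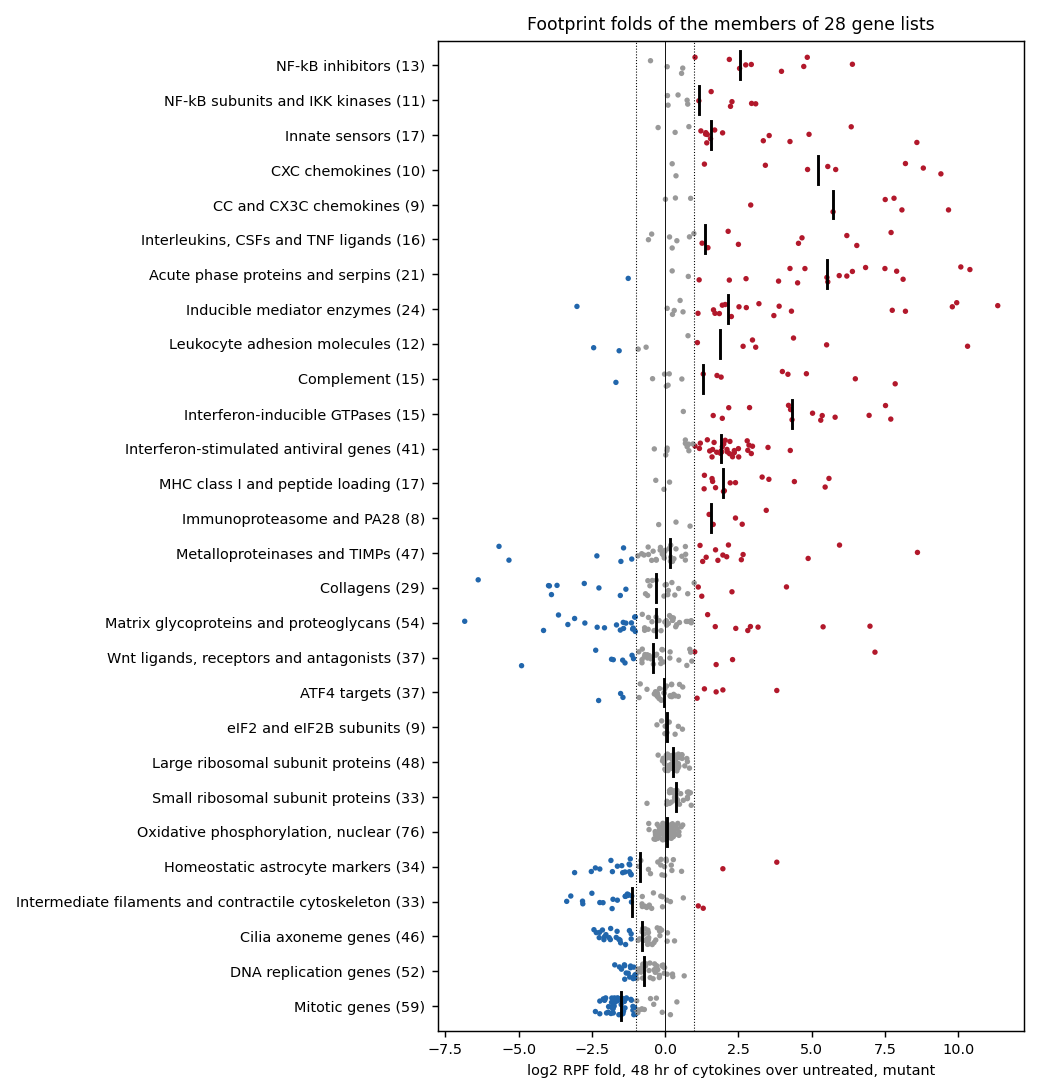
Members of 28 gene lists by their log2 RPF fold after 48 hr (horizontal axis, treated over untreated mutant cells). Each point is a gene, the number measured stands beside the list name, red points are high, blue points low, and the black bar is the list median. The inflammatory lists in the first 14 lines of the plot have medians from 1.15 to 5.73, while mitotic genes have a median of -1.5 and the eIF2 and ribosomal protein lists have no member beyond 1.

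Chemokine genes had the highest medians among the ligands. Of 10 CXC chemokines, 8 were high (median 5.21), and of 9 CC and CX3C chemokines 6 were (median 5.73), with none low in either list. Besides those named above, the authors' deposited table had the neutrophil attractant gene Cxcl1 at 8.20, Ccl7 at 8.08, the dendritic cell attractant gene Ccl20 at 7.81 and the monocyte attractant gene Ccl2 at 7.51. The interferon-inducible Cxcl10 at 5.82 and Cxcl11 at 4.86 in the authors' deposited table were high, whereas Cxcl9, of the same kind, was at 0.24. The authors' deposited table had its mRNA fold at 10.11 and its RPF fold at 24 hr at 4.91.

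The promoters of 4 genes named above and of the inhibitor gene Nfkbia are shown because each holds an NF-kB-type motif close to the transcription start. The motif searched was GGG, any 2 bases, then TTTCC, on both strands, and the capitals mark each match. Each run gives the 120 bases before the start, read 5′ to 3′ along the gene, from RefSeq on GRCm38.p6. Madcam1 (site starts 83 and 70 bases before the transcription start) is at chr10:79664439-79664558, plus strand, Cxcl2 (97 and 78) at chr5:90903779-90903898, plus strand and Cxcl1 (89 and 71) at chr5:90891125-90891244, plus strand. Ccl20 (80) is at chr1:83116646-83116765, plus strand and Nfkbia (29) at chr12:55492648-55492767, minus strand.
Madcam1: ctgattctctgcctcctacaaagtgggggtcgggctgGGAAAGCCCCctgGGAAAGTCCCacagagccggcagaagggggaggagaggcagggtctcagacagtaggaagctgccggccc
Cxcl2: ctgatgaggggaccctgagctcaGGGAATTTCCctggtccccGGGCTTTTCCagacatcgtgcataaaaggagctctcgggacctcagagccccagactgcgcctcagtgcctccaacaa
Cxcl1: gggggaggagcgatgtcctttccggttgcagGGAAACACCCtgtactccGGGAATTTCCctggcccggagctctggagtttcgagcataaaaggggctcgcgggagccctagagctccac
Ccl20: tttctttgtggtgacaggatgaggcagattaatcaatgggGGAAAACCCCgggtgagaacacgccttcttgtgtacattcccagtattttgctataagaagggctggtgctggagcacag
Nfkbia: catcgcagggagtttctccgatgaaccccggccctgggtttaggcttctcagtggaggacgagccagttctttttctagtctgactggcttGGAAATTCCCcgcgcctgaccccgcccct

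Such a motif was present in 5.59% of the 644 high genes with a promoter window, that is 36 genes. In the 9375 tested genes with a window (250 bases before the start to 50 after it) the share was 2.04%, in genes between -1 and 1 it was 1.86%, and in the 739 low genes it was 0.812%. Among the 98 genes with folds of 4 or more it was 17.3%, and 1.63% of all 32851 promoter windows in the table held one. Most members of the lists that the shown chemokine and inhibitor genes come from had no match. It was found in 2 of 7 CXC chemokines, 2 of 6 CC and CX3C chemokines and 3 of 11 NF-kB inhibitors with a window. A match describes letters in this window and is not a site or a cause. In 3 windows it overlapped a match to the interferon-response-type motif below, and in 27 a match to the NF-Y-type motif.

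Interleukins, colony stimulating factors and TNF ligands had 9 of 16 measured members high (median 1.36). The authors' deposited table placed Tnfsf11, the osteoclast-inducing ligand RANKL, at 7.71, the granulocyte factor gene Csf3 at 6.54, Il19 at 6.2, the receptor gene Cd40 at 4.67 and Il6 at 4.55. Lif at 2.50 and Csf1 at 2.15 had smaller folds in the authors' deposited table. Tnf and Il1b, the genes of the applied cytokines, are not among the genes analysed here.

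Of 36 growth factors 8 were high and 9 low, with a median of -0.03. The authors' deposited table gave the hepatocyte growth factor gene Hgf 4.35, Fgf7 3.11, the EGF-type ligand gene Ereg 2.63 and Bmp2 2.61. Members of the same families were low in the authors' deposited table, with Bmp7 at -3.66, Fgf18 at -2.97, Tgfb3 at -2.42 and Bmp6 at -2.30. Growth factor receptors had 4 of 34 high and 6 low (median -0.14). The authors' deposited table had the platelet-derived growth factor receptor gene Pdgfra at 2.36 and Egfr at 1.54, and the vascular receptor gene Kdr at -3.23, Erbb4 at -3.17 and Ntrk2, the BDNF receptor, at -1.90.

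Wnt, Notch and Hedgehog genes were more often low than high. In the Wnt list 8 of 37 were low and 4 high (median -0.40). The ligand gene Wnt6 was high at 7.16 in the authors' deposited table, against -4.90 for Wnt2b and -2.37 for Wnt7b. Of the Frizzled receptor genes, the authors' deposited table had Fzd4 at -1.77, Fzd7 at -1.45, Fzd3 at -1.13 and Fzd2 at -1.08. In the Notch and Hedgehog list 4 of 20 were low and none high (median -0.55), with the Hedgehog effector genes Gli1 at -2.86 and Gli2 at -1.71 and the Notch target genes Hey1 at -1.65 and Hey2 at -1.5 in the authors' deposited table.

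Effector genes of the acute phase response had a median of 5.52, and 18 of 21 were high. Apart from Serpina3f and Saa3, the authors' deposited table gave Serpina3g 8.12, Saa2 7.90, the siderophore-binding lipocalin gene Lcn2 7.50, the haemoglobin-binding Hp 6.84 and the haem-binding Hpx 6.39. A2m, the alpha-2-macroglobulin gene, was at -1.26 in the authors' deposited table. The Serpina3 genes are close copies, and the counting of reads shared between copies was not given in the sources used here, so single members are uncertain.

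Inducible enzymes of inflammatory mediators were high in 18 of 24 cases (median 2.16). The authors' deposited table gave the oxysterol-producing Ch25h 7.75, the prostaglandin synthase gene Ptgs2 4.31, the copper-carrying ferroxidase gene Cp 3.89 and xanthine dehydrogenase, Xdh, 3.71. Ptgds, which makes prostaglandin D and is a glial product, was at -3.01 in the authors' deposited table. Of 12 leukocyte adhesion genes, 7 were high and 2 low (median 1.88). After Madcam1, the authors' deposited table had Selp, the platelet selectin, at 5.51, Vcam1 at 4.38 and the hyaluronan receptor gene Cd44 at 3.09, with the junctional gene Jam2 at -2.44 and Alcam at -1.57.

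Complement genes had 8 of 15 members high and 1 low (median 1.30). The authors' deposited table had the alternative pathway protease gene Cfb at 7.85, the central component gene C3 at 6.49 and the classical pathway protease genes C1ra at 4.82, C1rb at 4.19 and C1s1 at 4.00. Regulators named here did not share these values in the authors' deposited table, with Cd55 at 0.14, Cfi at -0.43 and Cd59a at -1.68. C1ra and C1rb are genes of the same cluster, and reads shared between them could affect their single values, which was not tested.

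Interferon-response genes were high as a group. Of 15 interferon-inducible GTPases 14 were high (median 4.33), and of 41 antiviral genes 31 were (median 1.91), with none low in either list. Guanylate-binding protein genes led in the authors' deposited table, with Gbp10 at 7.70, Gbp4 at 7.52, Gbp5 at 6.96 and Gbp6 at 5.80. Tgtp2, a GTPase of the immunity-related family, was at 0.62 in the authors' deposited table, with an RPF fold of 6.53 at 24 hr. Several of these GTPases are near-identical copies, so their single values are uncertain. Among antiviral genes the authors' deposited table gave Sp100 4.27, Phf11d 3.51, Parp14 2.98 and Ifi44 2.94. The ubiquitin-like Isg15 was at 2.80, and Mx1, Ifit2 and Cmpk2 were at 0.69, 0.07 and 0.02, in the authors' deposited table.

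A pair of these promoters is shown for the interferon-response-type motif (GAAA, any 2 bases, then GAAA), searched on both strands and capitalised, in the same window and source as above. Ifit1 (site starts 104 and 85 bases before the start) is at chr19:34640769-34640888, plus strand and Gbp2 (59) at chr3:142620543-142620662, plus strand. The authors' deposited table gave Ifit1, an RNA-binding antiviral protein gene, an RPF fold of 2.86 and Gbp2 one of 5.03.
Ifit1: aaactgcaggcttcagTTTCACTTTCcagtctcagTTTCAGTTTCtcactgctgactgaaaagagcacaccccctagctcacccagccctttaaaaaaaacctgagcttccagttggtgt
Gbp2: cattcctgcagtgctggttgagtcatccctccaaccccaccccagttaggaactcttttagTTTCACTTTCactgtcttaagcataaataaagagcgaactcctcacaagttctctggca

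The motif was present in 8 of 9 GTPase genes with a window and in 14 of 32 antiviral genes. Of the high genes, 10.1% held it, against 3.78% of all tested genes with a window, 4.33% of low genes and 3.44% of all windows. Like the NF-kB-type motif it was found in 17.3% of the 98 genes with folds of 4 or more. Its matches overlapped those of the CHR-type motif below in 16 windows.

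**Figure D2:**
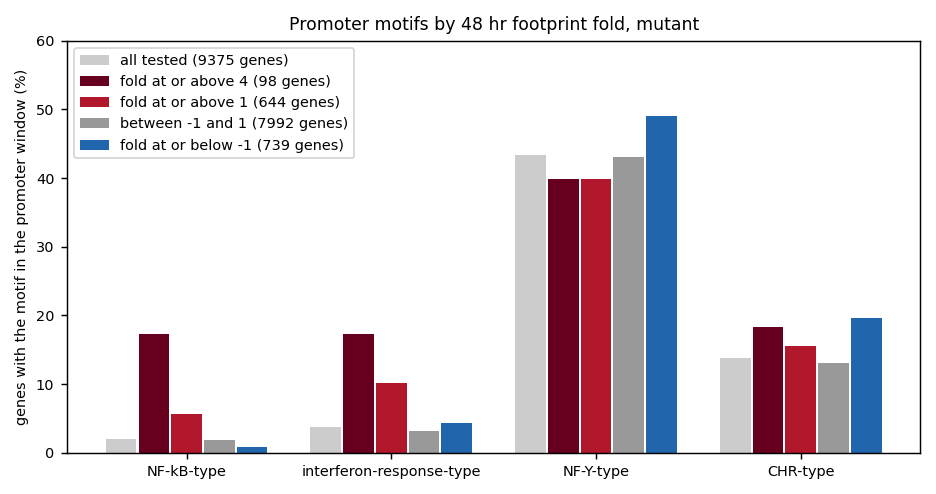
Share of genes whose promoter window holds a match to each of 4 motifs (vertical axis, percent), by 48 hr RPF fold of the mutant. The numbers of genes stand in the key, the genes with folds of 4 or more are also among those high, and no error is drawn. The NF-kB-type share goes from 0.812% of low genes to 17.3% of genes with folds of 4 or more, and the NF-Y-type share is highest, at 49.0%, in low genes.

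Antigen presentation genes followed a similar course. In the class I list 14 of 17 genes were high (median 1.99), and the authors' deposited table had H2-Q7 at 5.59, H2-Q6 at 5.46, H2-Q4 at 4.41, H2-K1 at 3.54, the light chain gene B2m at 2.40 and the peptide transporter genes Tap2 at 2.22 and Tap1 at 1.6. The H2-Q genes are neighbours of the same family, and reads shared between them could affect their single values, which was not tested. The general chaperones of the list were near 0 in the authors' deposited table, Canx at 0.15, Pdia3 at -0.04 and Calr at -0.32. Of 8 immunoproteasome and activator genes 5 were high (median 1.57), with the catalytic subunit genes Psmb8 at 3.45, Psmb9 at 2.63 and Psmb10 at 2.40 in the authors' deposited table. Of 32 constitutive proteasome genes 1 was high (median 0.23). The genes whose subunits those replace, Psmb5, Psmb6 and Psmb7, were at 0.44, 0.37 and 0.04 in the authors' deposited table.

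Cell death genes had 10 of 32 members high and none low (median 0.58). The 5 highest in the authors' deposited table were the inflammatory caspase gene Casp4 at 4.59, the survival gene Birc3 at 3.39, the pore-forming Gsdmd at 2.96, the BH3-only gene Bid at 2.84 and the necroptosis effector gene Mlkl at 2.76. Bax, a pore-forming gene of the mitochondrial pathway, was at 0.58 in the authors' deposited table. In the authors' own list of apoptosis genes, 17 of 67 were high and 1 low (median 0.35), and in their list of cytokine activity 29 of 74 were high and 4 low (median 0.39). The study chose these lists, so they are not independent evidence of a direction.

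Matrix genes were spread in both directions, and low members outnumbered high ones in collagens and glycoproteins. Of 29 collagen genes, 9 were low and 4 high (median -0.30). After Col8a2 the authors' deposited table had the basement membrane chain genes Col4a3 at -3.98 and Col4a4 at -3.95 and the cartilage collagen gene Col2a1 at -3.88, and at the high end Col23a1 at 4.14. Of 54 glycoprotein and proteoglycan genes, 19 were low and 8 high (median -0.32). Members of 1 family stood far apart here, as the authors' deposited table gave the small leucine-rich proteoglycan genes Dcn 5.39 and Lum 2.91 but Ogn -3.09. Within this list the highest and the lowest after Matn3 in the authors' deposited table were Smoc2, a calcium-binding matricellular gene, at 6.99 and the elastic fibre gene Fbln5 at -4.15.

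Proteases and adhesion receptors of the matrix were mixed. Of 47 metalloproteinase and inhibitor genes, 13 were high and 6 low (median 0.18). Beside Mmp9, the authors' deposited table had the elastase gene Mmp12 at 5.95 and the stromelysin gene Mmp3 at 4.88. Timp1 at 2.16 and Timp3 at -2.33 in the authors' deposited table, both inhibitors of these enzymes, had opposite signs. Integrins and laminins had 6 of 27 on either side (median 0.09), with the laminin genes Lamb3 at 2.84 and Lama2 at -1.85 in the authors' deposited table.

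Genes of dividing cells had mostly negative footprint folds. Of 59 mitotic genes 46 were low and none high (median -1.5), and of 52 DNA replication genes 16 were low (median -0.71). The kinetochore gene Nuf2 was lowest in the authors' deposited table at -2.38, followed by the cytokinesis gene Anln and the centromeric histone gene Cenpa at -2.23 each and the cyclin gene Ccnb2 at -2.11. The securin gene Pttg1 was the highest in the authors' deposited table, at 0.40. For replication, the authors' deposited table had the initiation factor genes Mcm10 at -1.72 and Cdc45 at -1.56, and the thymidylate synthase gene Tyms at 0.65. In whole cultures, fewer dividing cells and less RNA per cell cannot be told apart, and the same holds for every cell type marker below. G1 regulators were mixed, with 5 of 30 high and 5 low (median -0.06). The authors' deposited table gave the growth arrest gene Gadd45a 2.07 and the cyclin-dependent kinase inhibitor gene Cdkn1c -3.41.

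The promoters of Ccnb2 and of Cdc20, the activator of the anaphase-promoting complex, are shown for the NF-Y-type motif CCAAT and the CHR-type motif TTTGAA, an element of late cell cycle promoters. Both were searched on both strands and are in capitals, in the same window and source as above. Ccnb2 (NF-Y-type sites starting 87, 54 and 21 bases before the start) is at chr9:70421555-70421674, minus strand. The bases shown for Ccnb2 hold no CHR-type match. Cdc20 (NF-Y-type sites at 53 and 8, CHR-type site at 18) is at chr4:118437344-118437463, minus strand, and the authors' deposited table gave it an RPF fold of -1.5.
Ccnb2: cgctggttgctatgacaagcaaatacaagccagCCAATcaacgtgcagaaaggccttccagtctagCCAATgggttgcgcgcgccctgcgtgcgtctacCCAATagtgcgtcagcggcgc
Cdc20: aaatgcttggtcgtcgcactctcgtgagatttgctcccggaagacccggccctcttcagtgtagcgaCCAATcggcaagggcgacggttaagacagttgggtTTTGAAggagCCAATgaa

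Of 48 mitotic genes with a promoter window, 36 held the NF-Y-type motif and 36 the CHR-type motif. Among all tested genes with a window the shares were 43.3% and 13.8%, among low genes 49.0% and 19.6%, among high genes 39.9% and 15.5%, and among all promoter windows 37.4% and 17.9%. Of 43 DNA replication genes, 26 held the NF-Y-type and 5 the CHR-type motif. Lists with high folds held them too. The NF-Y-type motif was in 14 of 15 class I and peptide loading genes and 2 of 9 interferon-inducible GTPases. The CHR-type motif was in 1 of 15 and 5 of 9 of them. The 2 motifs overlapped each other in 47 windows.

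Astrocyte genes had mostly negative folds with exceptions on both sides. Of 34 homeostatic astrocyte markers 16 were low and 2 high (median -0.87). In the authors' deposited table the potassium channel gene Kcnj10 was at -3.09, Aldoc at -2.52, the sodium pump subunit gene Atp1b2 at -2.38 and the intermediate filament gene Gfap at -2.23. The glutamate transporter gene Slc1a2 at 1.97 and the cystine transporter gene Slc7a11 at 3.81 were the high members in the authors' deposited table, and the water channel gene Aqp4 was at -0.25. Intermediate filaments and contractile genes had 17 of 33 low and 2 high (median -1.14). The smooth muscle-type genes were lowest in the authors' deposited table, with Acta2 at -3.36, Lmod1 at -3.22, Cnn1 at -2.82 and Tagln at -2.81. Of 46 genes of the cilia axoneme and its transport 20 were low and none high (median -0.78), with Ccdc39 at -2.43 and the dynein gene Dnah11 at -2.35 in the authors' deposited table.

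All 10 defining astrocyte markers had a fold in the table, 5 of them low and 1 high. Of 7 defining microglial markers only Tmem119 had one, at 0.55 in the authors' deposited table, and Aif1, Cx3cr1, Itgam, Csf1r, P2ry12 and Ptprc have no fold in the data analysed here. In the wider list of 22 microglia and macrophage genes 8 had a fold and 4 were high, among them in the authors' deposited table Lilrb4a at 7.21 and the macrophage receptor gene Adgre1 at 5.57. All 6 defining fibroblast and mural markers had a fold, 3 of them high and 1 low, from -3.36 for Acta2 to 5.39 for Dcn in the authors' deposited table. The wider fibroblast and mural list had 3 of 14 high and 4 low (median -0.48). Oligodendrocyte lineage markers had 1 of 7 high and 3 low (median -0.33), neuronal markers 1 of 8 and 3 (median -0.59) and endothelial markers 1 of 6 and 1 (median -0.36). Ependymal and choroid plexus genes had 5 of 9 low and 1 high (median -1.10). The table gives no levels, and the part of such cells in any fold was not tested.

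The translation machinery itself had small footprint folds. None of the 9 eIF2 and eIF2B subunit genes was high or low (median 0.06). The authors' deposited table gave Eif2b5, the mutated gene, 0.06, and the other subunit genes Eif2b1 0.14, Eif2b3 0.00, Eif2b4 -0.12 and Eif2b2 -0.28. Their mRNA folds in the authors' deposited table were between -0.06 for Eif2b3 and 0.26 for Eif2b1 and Eif2b2, with Eif2b5 at 0.24. For eIF2, the substrate of eIF2B, the authors' deposited table had Eif2s2 at 0.59, Eif2s1 at 0.34 and Eif2s3x at -0.01. None of 12 genes of the eIF2 alpha kinases, phosphatases and their regulators was high or low either (median 0.03), with the regulator gene Impact at 0.97 and the kinase genes Eif2ak3 at 0.82 and Eif2ak2 at 0.81 in the authors' deposited table.

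Targets of ATF4, the transcription factor translated when eIF2 is limiting, were spread about 0. Of 37, 5 were high and 3 low, 13.5% and 8.1% of the list, with a median of -0.04. The shares over all genes were 7.43% and 8.29%. After Slc7a11, which is also in the astrocyte list, the authors' deposited table had Nupr1 at 1.97 and Cebpb at 1.74. The amino acid transporter gene Slc7a5 at -2.27, the cysteine-producing Cth at -1.52 and the serine synthesis gene Psat1 at -1.44 were the low members in the authors' deposited table. Atf4 itself was at 0.60, the stress effector gene Ddit3 at 0.18 and asparagine synthetase, Asns, at -0.01 in the authors' deposited table. ER chaperone and unfolded protein response genes had 1 of 26 high, the sensor gene Ern1 at 1.45 in the authors' deposited table (median 0.02). Of 34 cytosolic chaperone genes 3 (8.8%) were low, near the share over all genes (median -0.07). The small heat shock protein genes Hspb1 at -1.72 and Cryab at -1.65 were lowest in the authors' deposited table.

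Ribosomal protein genes had narrow and mostly positive folds. None of the 48 large-subunit and 33 small-subunit genes was high or low, and 42 and 32 of them were above 0, with medians of 0.28 and 0.36. Their median mRNA folds were 0.68 and 0.77, and 43 and 30 genes had a lower RPF than mRNA fold. The all-gene medians of RPF and mRNA were 0.01 and 0.04. The authors' deposited table gave Rps12 0.89 and Rpl11 0.83, the highest of the small and large subunit, and Fau -0.62, the lowest of both. Many of these genes have processed pseudogenes, so single members are uncertain. Initiation and elongation factors had 1 of 48 on either side (median 0.15), with Eif6, which keeps subunits apart, at 1.13 and the elongation factor kinase gene Eef2k at -1.82 in the authors' deposited table. Cytosolic aminoacyl-tRNA synthetases (22, median 0.16) and mitochondrial ribosomal proteins (76, median 0.10) had no member high or low.

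Core metabolism had folds near 0 with a few exceptions. None of 76 nuclear oxidative phosphorylation genes (median 0.06), 9 mitochondrially encoded genes (median 0.17) and 35 cholesterol genes (median 0.04) was high or low, and the extremes in the authors' deposited table were Atp5e at 0.60 and Atp5b at -0.56 for the first list and the mevalonate kinase gene Mvk at -0.97 and Npc2 at 0.60 for the last. TCA cycle genes were below 0 in 21 of 24 cases (median -0.34), with the isocitrate dehydrogenase gene Idh2 at -1.91 in the authors' deposited table. In glycolysis 4 of 24 were high and 2 low (median 0.15). The authors' deposited table gave the hexose transporter gene Slc2a6 4.69 and the lactate exporter gene Slc16a3 2.38, and the phosphofructokinase gene Pfkp -2.27. Antioxidant and metal genes had 10 of 41 high and none low (median 0.31). The authors' deposited table had the mitochondrial superoxide dismutase gene Sod2 at 2.77, the iron importer gene Slc11a2 at 2.36 and the ferritin gene Fth1 at 2.20.

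Footprints were then set beside the mRNA of the same lysates, whose RNA-seq libraries were made from the undigested portion. In mRNA, 1093 genes (8.96%) were high and 1006 (8.24%) low. Of these, 821 were high in both, which is 90.5% of the footprint set and 75.1% of the mRNA set, and 810 were low in both, 80.0% and 80.5%. The other 86 high and 202 low footprint genes mostly had an mRNA fold of the same sign. Of the 86, 11 had an mRNA fold under 0.5 and none under 0, and of the 202, 34 were above -0.5 and 5 above 0. Those 11 included in the authors' deposited table the matrix gene Tnn at 2.04 (mRNA 0.47) and the antiviral gene Oas3 at 1.17 (mRNA 0.17). The smooth muscle actin-type gene Actg2 was at -1.15 in the authors' deposited table with 0.52 in mRNA. These 3 genes were picked after their values were seen.

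**Figure D3:**
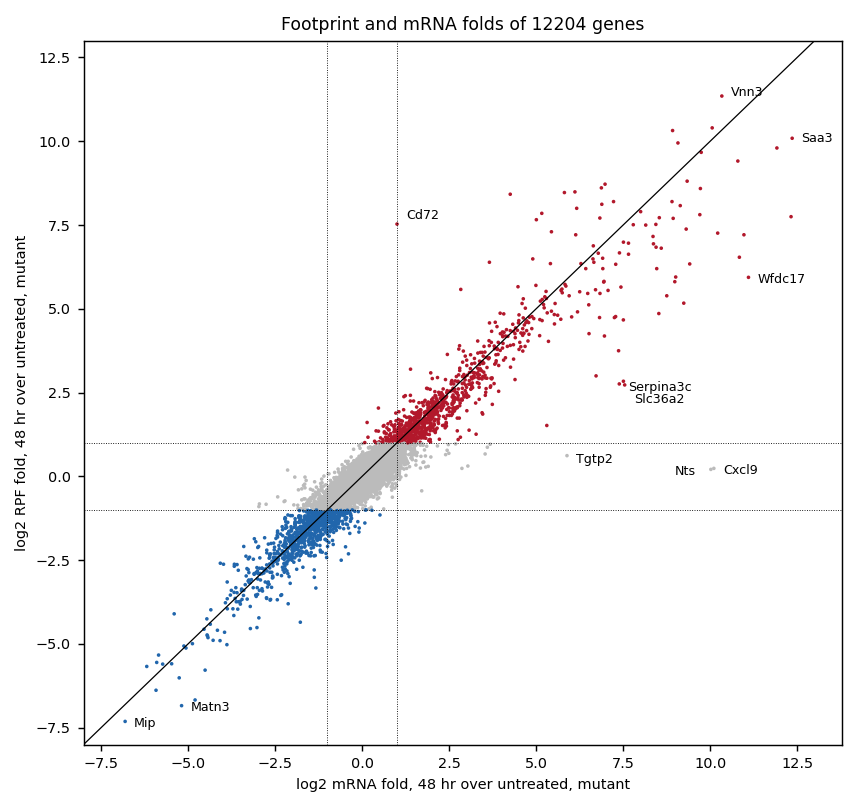
Log2 RPF fold (vertical axis) against log2 mRNA fold (horizontal axis) at 48 hr for 12204 genes of the mutant. Each point is a gene, red for high and blue for low RPF folds, the solid line marks equal folds and the dotted lines mark 1 and -1. Cxcl9 and Nts lie near an mRNA fold of 10 with RPF folds of 0.24 and 0.21, and Cd72 lies above the line.

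The RPF fold exceeded the mRNA fold by 1 or more in 62 genes (0.508%) and fell short of it by 1 or more in 165 (1.35%). Among named genes past 1 in RPF, the 8 lowest RPF-minus-mRNA differences ran from -5.16 to -3.79. Wfdc17, a whey acidic protein-type gene of activated macrophages, stood in the authors' deposited table at 5.94 in RPF and 11.10 in mRNA. For the amino acid transporter gene Slc36a2 the authors' deposited table gave 2.73 and 7.55, for Lamb3 2.84 and 7.51, for Serpina3c 2.76 and 7.39 and for Ch25h 7.75 and 12.32. Csf3 (6.54 and 10.84), Pglyrp3 (5.17 and 9.24) and Oas1a (1.52 and 5.31) completed the group in the authors' deposited table. At the other end the 8 highest differences ran from 1.83 to 6.53. The B-cell coreceptor gene Cd72 had 7.53 in RPF and 1.00 in mRNA in the authors' deposited table, and the next were Fam169a at 5.58 and 2.84, Hpx at 6.39 and 3.66 and Cfb at 7.85 and 5.16. Zmynd15 (8.47 and 5.81), the calprotectin gene S100a8 (7.66 and 5.01), Far2 (8.49 and 6.12) and Fyb (8.00 and 6.17) followed in the authors' deposited table. The neuropeptide gene Nts and Cxcl9 were under 1 in RPF and thus outside this ranking, where the authors' deposited table gave Nts 0.21 in RPF and 10.02 in mRNA, and Cxcl9 0.24 and 10.11. The authors' ribosome density (RD) folds were smaller in size than these gaps, -2.69 for Nts and -6.77 for Cxcl9. The same held for Cd72, with an RD fold of 2.80, whereas for Serpina3c the RD fold of -4.78 was close to the difference of -4.63. Serpina3c was the exception among the 8 lowest differences, as the RD folds of the other genes there were smaller in size than their gaps. The RD fold was -3.27 against a gap of -4.57 for Ch25h and -3.49 against -4.82 for Slc36a2. It was -2.88 against -4.07 for Pglyrp3, and nearer for Lamb3, at -4.06 against -4.67. The sizes of the gaps of these other genes and of Nts, Cxcl9 and Cd72 are therefore uncertain. Both sets hold genes with very large folds, and their levels before treatment are not given.

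The authors' RD fold (ribosome density) gave 93 high (0.762%) and 151 low (1.24%) genes. Of the 907 genes high in footprints, 54 had a low RD fold and 39 a high one, or 5.95% and 4.30%. Of the 1012 low genes the counts were 41 and 9, or 4.05% and 0.889%. The calculation of RD was not given in the sources used here. RD was not the RPF fold minus the mRNA fold for every gene. Mx1 had an RPF fold of 0.69, an mRNA fold of 2.49 and an RD fold of 1.01 in the authors' deposited table, and the integrin gene Itga9 had -0.20, -0.36 and -4.41.

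Footprint folds showed almost no trend with the GC content of the transcript, unlike the mRNA and RD folds. From the lowest to the highest of 5 equal groups of 11991 genes by GC content, the median RPF fold stayed between -0.01 and 0.02, while the median mRNA fold went from -0.15 to 0.33 and the median RD fold from 0.22 to -0.26. Spearman's rho across genes, which are not independent and share libraries, was 0.01 for RPF, 0.29 for mRNA and -0.51 for RD. In the WT columns rho was 0.05 for RPF, -0.34 for mRNA and 0.59 for RD, the signs of the mutant turned round for mRNA and RD. The part of GC content in the mRNA and RD folds was not tested. Coding length moved with the footprint calls: low genes had a median coding length of 1776 nt, against 1443 nt for genes between and 1446 nt for high genes. Of 5 equal groups by coding length, the shortest held 5.29% low genes and the longest 11.2%.

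**Figure D4:**
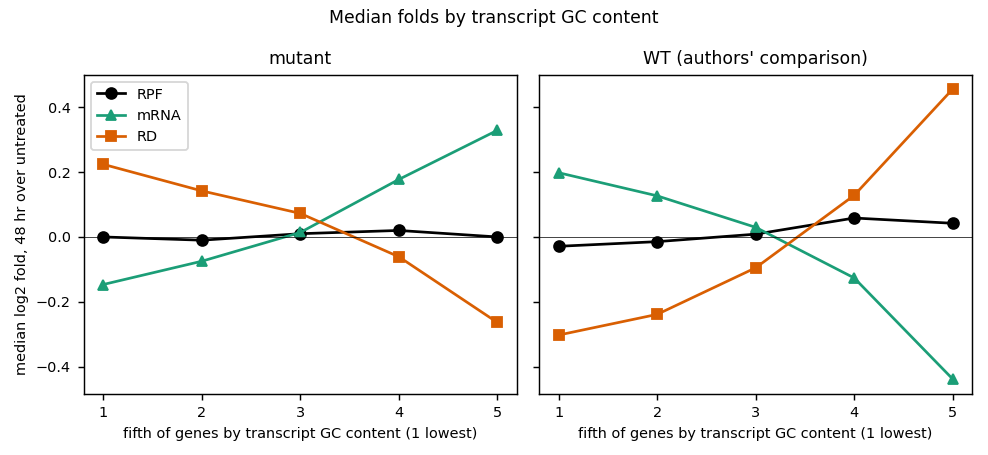
Median log2 fold at 48 hr (vertical axis) in 5 equal groups of 11991 genes by transcript GC content (horizontal axis), for footprints (RPF), mRNA and ribosome density (RD), in the mutant and in the authors' WT comparison. Points are medians over genes and no error is drawn. The RPF line lies between -0.03 and 0.06 in both panels, while the mRNA and RD lines slope in opposite directions in the 2 genotypes.

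The 24 hr footprint folds use the same untreated libraries, so the values are given side by side only. The median of antiviral genes was 2.97 at 24 hr and 1.91 at 48 hr, and that of the GTPases 5.87 and 4.33, while acute phase genes had 4.64 and 5.52 and complement genes 0.96 and 1.30. In the authors' deposited table Mx1 stood at 4.68 and 0.69, Tgtp2 6.53 and 0.62, and Nts 6.62 and 0.21. The 48 hr RPF folds of these genes do not tally with their 48 hr mRNA and RD folds. Those were 5.89 and -1.31 for Tgtp2 and 10.02 and -2.69 for Nts, and those of Mx1 are given above. The change of these genes between the times is therefore uncertain. Higher at the later time in the authors' deposited table were Wfdc17, with 0.37 and 5.94, and Adgre1, with 2.81 and 5.57. The 24 hr mRNA fold of Wfdc17 was 8.26, far above its 24 hr RPF fold, so its change between the times is uncertain too. Among low genes Matn3 had -3.43 and -6.84 and Lect1 -2.35 and -5.60 in the authors' deposited table. The all-gene median was 0.01 at both times.

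**Figure D5:**
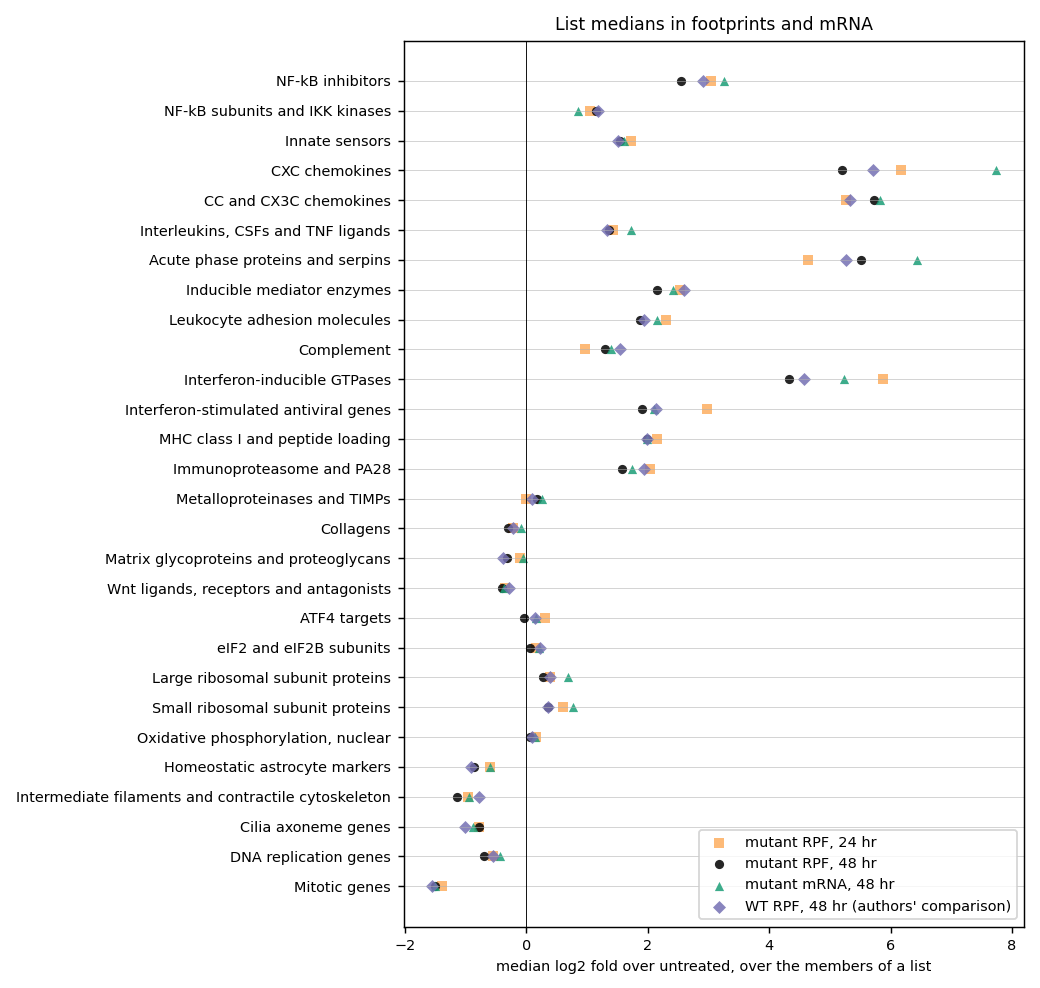
Median log2 fold over untreated cells (horizontal axis) of 28 gene lists, for mutant footprints at 24 hr and 48 hr, mutant mRNA at 48 hr and the authors' WT footprints at 48 hr. Each mark is a median over the list's members, with no error. For CXC chemokines the mRNA median of 7.74 exceeds the RPF median of 5.21, and for antiviral genes the 24 hr mark of 2.97 lies to the right of the 48 hr mark of 1.91.

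The WT footprint folds of the authors' deposited table come from libraries that are not analysed here, and genotype cannot be told apart from culture or library set. At 48 hr, 992 genes (8.13%) were high in the WT and 1063 (8.71%) low. High genes shared with the mutant were 807, or 89.0% of the mutant set and 81.4% of the WT set, low genes shared were 825, or 81.5% and 77.6%, and no gene was past 1 in opposite directions. The mutant fold was higher than the WT fold by 1 or more for 114 genes (0.934%) and lower by 1 or more for 108 (0.885%), and 89.4% of genes were within 0.5. No difference was tested.

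Among named genes the 8 highest mutant-minus-WT differences ran from 2.94 to 6.64. Serpina3e-ps, annotated as a pseudogene within the Serpina3 cluster, had RPF folds of 6.81 in the mutant and 0.17 in the WT in the authors' deposited table. The peptidoglycan-binding Pglyrp3 had 5.17 and 0.37 in the authors' deposited table, Mmp12 5.95 and 2.21, Serpina3f 10.40 and 7.20, Ccl5 9.67 and 6.64 and S100a8 7.66 and 4.72. The WT mRNA and RD folds were 5.00 and 0.08 for Serpina3e-ps and 8.64 and -1.29 for Pglyrp3. The WT RPF folds near 0 of Serpina3e-ps and Pglyrp3 do not tally with these values and are uncertain. For H19, a noncoding RNA, and the natriuretic peptide gene Nppc the difference came from a lower WT fold, with -0.12 and -4.37 for H19 and -2.62 and -5.67 for Nppc in the authors' deposited table. At the other end the differences ran from -6.66 to -2.52. Nts had 0.21 in the mutant and 6.87 in the WT in the authors' deposited table, the bone sialoprotein gene Ibsp 1.26 and 4.31, Ccl17 0.87 and 3.77 and Tgtp2 0.62 and 3.31. The mRNA folds in mutant and WT were close, 10.02 and 10.32 for Nts and 5.89 and 6.04 for Tgtp2. The RD folds were close too, -2.69 and -2.77 for Nts and -1.31 in both for Tgtp2. The low mutant RPF folds of Nts and Tgtp2 do not tally with these values and are uncertain. The mutant mRNA and RD folds were 3.28 and -0.04 for Ibsp and 3.60 and -1.08 for Ccl17. With these the mutant RPF folds of Ibsp and Ccl17 do not tally either, so they are uncertain too. Slc36a2 (2.73 and 5.41), Oas1a (1.52 and 4.18), Mip (-7.31 and -4.76) and Wnt10a (4.93 and 7.45) made up the rest in the authors' deposited table. The list medians in the mutant and the WT were 5.21 and 5.72 for CXC chemokines, 1.91 and 2.14 for antiviral genes and -1.5 and -1.56 for mitotic genes.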

How the data were processed

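Ribo-seq and RNA-seq libraries of 6 groups (3 each) were made from cultures of mutant primary astrocytes, and footprints of 26 to 34 nt were gel-selected per the labels' protocols. TopHat2, featureCounts and the build mm10 stand in the submitters' processing notes, without versions. The authors' deposited table holds log2 folds of treated over untreated cells for 12205 genes, 1 pooled value per gene and comparison, per the file headers; the mutant 48 hr RPF column has 2 decimals. The software for these folds was not given in the sources used here. Depth is unknown. The authors' deposited gene lists were used for membership only.

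Gene names came from the files; 31 symbols damaged by a spreadsheet were restored from their identifiers, and Dynlt1b, which lacks the fold, was left out. Genes with a log2 fold of 1 or more, or -1 or less, were counted over all 12204 genes, and each of 57 lists was described by its counts and median, with no test, since no replicate values exist. RPF minus mRNA and mutant minus WT are differences of folds. Coding length and GC content came from GENCODE M21 (GRCm38), using the longest coding transcript, and promoters from RefSeq (GRCm38.p6), matched by symbol for 9375 genes.

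Named were the 15 highest and 15 lowest genes, up to 4 members of a list with the largest folds in size and any other member of a list described gene by gene, the 8 largest differences in each direction, and the eIF2B subunits; predicted models and Riken clones were not ranked. The members, lists and rule were chosen with earlier results of these data known. Alternatives were other thresholds, strict inequality, subtraction of the all-gene median, leaving out predicted models, means, and leaving out genes in more than 1 list. The counting code was tested on simulated data. Python 3.11.15, pandas 2.3.3, numpy 2.4.6 and matplotlib 3.10.9 were used.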

Additional observations from a re-analysis of the deposited data

How the results depend on the processing

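The counts of high and low genes depended on the threshold. Low genes numbered 1012 at a limit of -1 and 539 at -1.5, while high genes went from 907 to 625 at 1.5 and to 1151 at 0.8. The count of genes past 1 in footprints and not in mRNA was 288 and dropped to 45 when the mRNA fold had to be under 0.5 in size; this follows from the stricter limit. High and low counts stayed within 1.5 times under strict inequality, with the all-gene median subtracted and without predicted models. Genes past 1 in RPF with RD also past 1 numbered 143, or 149 with RPF minus mRNA in place of RD, and genes with mutant and WT folds 1 or more apart 222, or 224 with each median subtracted. Subtracting medians of 20 bins of GC content, chosen after seeing the data, kept all 5 counts within 1.5 times. No median of the 57 lists changed to the opposite sign when the all-gene median was subtracted, when genes in more than 1 list were left out and after subtraction of GC bin medians, though that of growth factor receptors went to 0 when genes in more than 1 list were left out; with the mean in place of the median 3 changed sign. The largest shifts were 1.29 without shared genes (microglia and macrophage markers, 2.08 to 3.36) and 1.13 with the mean (mediator enzymes, 2.16 to 3.28); collagens went from -0.30 to -0.17 without shared genes and -0.73 with the mean. Means also exceeded medians for TNF and IL-1 receptors and adaptors (0.90 and 0.47) and for the C/EBP, STAT, IRF and SOCS list (0.74 and 0.33). Without shared genes, the median of oligodendrocyte lineage markers went from -0.33 to -1.02. That of intermediate filaments and contractile genes went from -1.14 to -0.785. No paired analysis was possible because the table holds 1 pooled fold per gene, and for the same reason no replicate could be left out. Depth and levels are unknown, so large folds of genes near the detection floor cannot be set apart.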

Other observations

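Most genes past the threshold were in none of the 57 lists, which held 30.5% of the high genes and 20.8% of the low ones. The genes and families in this section were picked after their values were seen. Single genes outside the lists in the authors' deposited table included the cathelicidin gene Camp at 7.72, the growth-restricting schlafen gene Slfn2 at 7.21, the lymphoid transcription factor gene Spib at 6.94, the costimulatory receptor gene Tnfrsf9 at 6.88 and Cd74, the class II invariant chain, at 6.67. Of 12 measured genes of the TNF receptor superfamily 6 were high, of 17 interleukin receptors 7, of 12 PARP genes 6 and of 38 TRIM genes 8, with none low in any of these families. Of all genes 7.43% were high and 8.29% low. Potassium channel genes went both ways, with 8 of 28 high and 9 low, from Kcnf1 at 5.48 to Kcnab1 at -3.67 in the authors' deposited table. Semaphorins and plexins had 10 of 25 low and 2 high, and glutamate receptors 4 of 16 and 1. Of 305 Zfp genes, 3 were high and 9 low. Solute carriers had 28 of 214 high and 19 low, and the authors' deposited table gave the peptide and histidine transporter gene Slc15a3 6.34 and the amino acid transporter gene Slc7a8 -4.81.

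Some neighbouring genes were high together. Counting genes with a fold along each chromosome, 14 runs of 4 or more adjacent genes were all high, holding 67 of the 907 high genes, and 16 runs of 3 or more were all low; no expected number was computed. The longest had 8 genes, the Serpina3 cluster from Serpina3c to Serpina3n (chromosome 12, 104146382 to 104414329, GRCm38), with folds from 2.19 to 10.40 in the authors' deposited table. A run of 7 genes on chromosome 1 (173630917 to 174031810) went from Pyhin1 to Ifi205, with folds from 3.16 to 8.42 in the authors' deposited table, and 5 Gbp genes on chromosome 5 (105014150 to 105293698) had 4.28 to 7.70. Genes of a cluster are close copies, so shared reads can make their values alike; this was not tested. On chromosome 16 (91372783 to 91565623) the 4 adjacent receptor chain genes Ifnar2, Il10rb, Ifnar1 and Ifngr2 were at 1.03 to 1.80 in the authors' deposited table. Of low genes the longest runs had 4, among them Cenpp, Ecm2, Omd and Ogn on chromosome 13, with folds from -4.99 to -1.11 in the authors' deposited table, and Ccdc103, Gfap, Kif18b and C1ql1 on chromosome 11, with -2.23 to -1.04.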
